A study of Mus musculus with 4 samples.

Results

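Solute carriers (SLC) are membrane proteins that move nutrients, metabolites, ions and metals across cell and organelle membranes. The genes described here are the solute carrier genes with detectable RNA in mouse pachytene spermatocytes. They were taken as the protein-coding mouse symbols built from Slc, a family number and a letter, with 1 symbol set aside by the rule, whose mean TPM (a level divided by transcript length and scaled to the same total in each library) over 4 libraries was at least 1. Of 370 such symbols among the 55364 genes in the tables, 174 reached that level and 196 did not. They covered 42 of the 49 families with a symbol. Of the 174, 171 belong to carrier families and 3 carry an Slc symbol without being carriers. Counts and rankings of carriers below include these 3, except where substrate classes or the non-carriers are set apart.

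Each family is defined by sequence and usually by the kind of substrate, such as hexoses, amino acids, monocarboxylates, phosphate, zinc or the metabolites exchanged across the inner mitochondrial membrane. Pachytene spermatocytes, male germ cells whose paired homologous chromosomes are recombining in meiosis, lie behind the Sertoli cell barrier and take up lactate and pyruvate delivered by Sertoli cells. Some carriers have forms made mainly in the male germ line, among them an ADP/ATP carrier of sperm mitochondria, and their RNA can be stored long before the protein is needed in spermatids and sperm.

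One genotype carried a knock-in on both copies of Ddx4 (KK), and the other was wild type (WT). Ddx4 encodes the germline RNA helicase of germ granules, and the series title places the mice in work on phase separation, germ granules and RNA homeostasis. RNA-seq libraries were made from elutriated pachytene spermatocytes of testis, 2 per genotype, and the labels give no age, strain or further allele. Whether libraries with the same genotype stem from different mice is not in the labels, so the p-values measure the spread between these libraries, which may be technical.

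Total expected counts per library ranged from 17970207 to 19438570. Ddx4 itself had 54.4 and 52.5 TPM in KK cells, against 265 and 273 TPM in WT cells, and was lower in both KK libraries. Of 10 pachytene markers all were detected, with summed levels of 12600 and 12400 TPM in KK cells and 13100 and 13000 TPM in WT cells, and 7 of them were lower in KK. RNA of other testis cells was present as well. Of 9 Leydig cell markers, 8 were higher in KK, with sums of 2490 and 2570 TPM in KK cells and 696 and 734 TPM in WT cells. Insl3 made up most of these sums (2314 and 2399 TPM in KK, 611 and 642 TPM in WT). The other 8, of which 7 were higher, summed to 177 and 172 TPM in KK cells and 85.2 and 91.6 TPM in WT cells. The spermatid list (9 genes, 3 higher and 5 lower in KK) summed to 17400 and 16800 TPM in KK and 19100 and 19000 TPM in WT. The spermatogonial list (9 genes, 6 higher, 0 lower) summed to 51.7 and 56.4 TPM in KK and 26.7 and 75.6 TPM in WT. Uchl1 made up most of each of these sums (32.0 and 33.0 TPM in KK, 17.9 and 66.2 TPM in WT). Its expected counts were 341 and 319 in KK and 164 and 199 in WT, and it was called higher in KK. The Sertoli list (7 of 9 genes tested, 1 higher, 3 lower) summed to 106 and 110 TPM in KK and 118 TPM in each WT library. Macrophage (4 of 6 tested, 2 higher), peritubular and endothelial (4 of 6 tested, 2 higher) and erythroid markers (2 of 3 tested, 0 called) summed to between 1.96 and 10.4 TPM in every library, and no marker on any list was at 0 in either genotype. The part of these cells in the carrier levels below was not tested. In bulk RNA, fewer cells of a type and less RNA per cell cannot be told apart.

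The levels of the 174 genes chose them and are given as a description. Their median was 8.95 TPM, with 11 genes at 100 TPM or more, 29 at 50 TPM or more, 53 between 10 and 50 TPM and 92 under 10 TPM. The 10 most abundant were, in order, Slc2a3, Slc25a39, Slc2a5, Slc6a21, Slc22a16, Slc16a7, Slc9b1, Slc26a8, Slc30a3 and Slc22a21. Together these 10 held 62.1% of the summed carrier TPM in each KK library, against 66.3% and 66.8% in the WT libraries. At the lower edge, Slc45a3 (1.42 and 1.68 TPM in KK, 0.65 and 0.35 TPM in WT), Slc5a3 (0.93 and 0.92 TPM in KK, 1.15 and 1.06 TPM in WT) and Slc26a7 (0.54 and 1.42 TPM in KK, 1.51 and 0.56 TPM in WT) lay just inside. Slc9a3 (1.02 and 0.85 TPM in KK, 1.13 and 0.98 TPM in WT) and Slc6a13 (1.29 and 0.69 TPM in KK, 1.21 and 0.71 TPM in WT) lay just outside. Of the 47 symbols of the mitochondrial carrier family Slc25, 32 were expressed, as were 18 of 27 in the nucleotide sugar family Slc35, 10 of 14 zinc importers of Slc39 and 8 of 10 zinc exporters of Slc30. In contrast, only 4 of 21 symbols of the amino acid and neurotransmitter family Slc6, 3 of 12 hexose transporters of Slc2 and 6 of 14 of the monocarboxylate family Slc16 reached 1 TPM. No symbol of the Slc23, Slc24, Slc28, Slc32, Slc40, Slc46 or Slc51 families did.

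**Figure D1:**
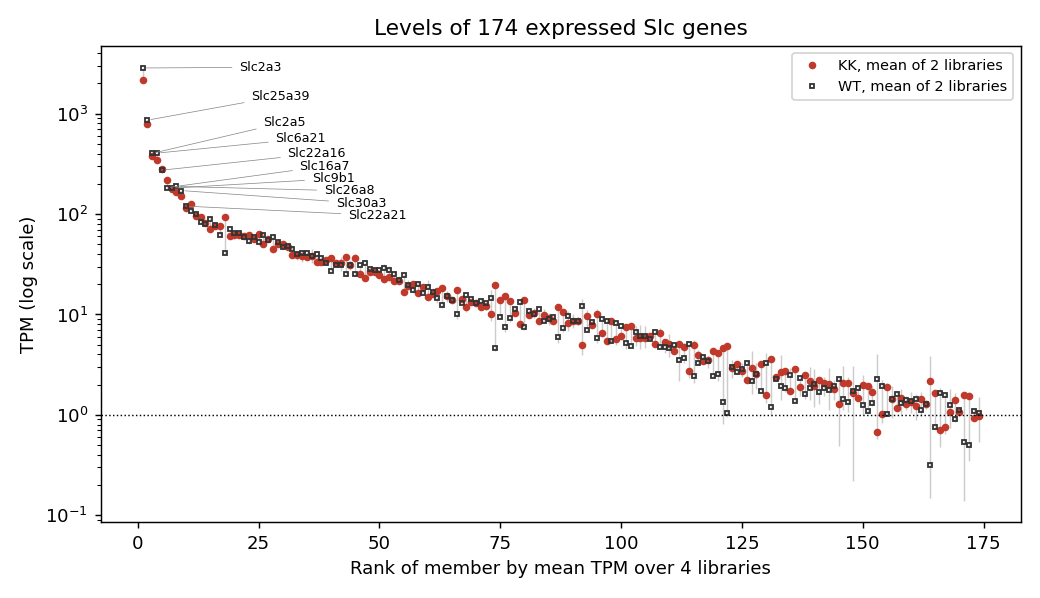
Mean TPM (log scale) of each of the 174 solute carrier genes in KK libraries (filled circles) and WT libraries (open squares), 2 libraries each, ordered by rank; grey lines span the 4 libraries and the dotted line marks 1 TPM. The 10 most abundant genes are named, and Slc2a3 stands above all others in both genotypes.

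The summed carrier level was lower in KK. It was 7610 and 7783 TPM in KK libraries and 8544 and 8411 TPM in WT libraries, a ratio of 0.908, and the ranges did not overlap. Without Slc2a3 the sums were 5466 and 5618 TPM in KK and 5665 and 5584 TPM in WT, a ratio of 0.985, and these ranges did overlap. The 164 genes outside the 10 most abundant summed to 2880 and 2950 TPM in KK and 2880 and 2793 TPM in WT. The difference in the total was thus carried by the few most abundant genes, and mainly by Slc2a3.

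As many carrier genes rose in KK as fell. Of the 173 genes with enough counts to test, 40 were higher in KK (23.1%) and 40 were lower (23.1%), against a background of 22.0% higher and 21.7% lower among all 16571 genes tested (edgeR quasi-likelihood test with Benjamini-Hochberg adjustment at 0.05). Among protein-coding genes with a mean TPM of at least 1, 22.8% were higher and 28.1% lower. The shares of the carriers lay close to these backgrounds. The carriers' median log2 fold change was -0.05, against 0.003 for all genes tested. When counts were scaled by library size alone, 45 carriers were higher and 28 lower, so that 61.6% of the calls were higher in place of 50%, and the background moved in the same way, to 27.3% higher and 15.2% lower. Of the 80 called carriers, 35 had an absolute log2 fold change under 0.5. In all, 11 were at least 2-fold higher and 2 at least 2-fold lower. The backgrounds were 8.88% and 0.754% among all genes tested and 6.21% and 0.31% among protein-coding genes with a mean TPM of at least 1. Of these 2-fold changes, 3 rises and 2 falls were of carriers that reached the required mean through 1 genotype alone (below). Among carriers with at least 1 TPM in each genotype, 8 were at least 2-fold higher and 0 at least 2-fold lower. Without the genes that are not carriers, 39 of 170 tested were higher and 39 lower, with 10 at least 2-fold higher and 2 at least 2-fold lower.

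The median log2 difference in CPM (counts scaled to the library total) was 0.106 between the KK libraries, 0.104 between the WT libraries and 0.246 between genotypes. In CPM, 54 of the 174 carriers had both KK libraries above both WT libraries (background 36.0%), 67 had both below (background 34.8%), and 53 overlapped. The choice by mean level let in 5 genes through their KK level alone (Slc5a2, Slc44a5, Slc18a3, Slc6a8 and Slc45a3) and 5 through their WT level alone (Slc13a3, Slc35f2, Slc22a7, Slc5a3 and Slc26a7), and such genes had to differ in mean. Among the 164 with at least 1 TPM in each genotype, 37 were higher and 38 lower. Slc5a2, a sodium-glucose cotransporter, was the gene not tested. Sorted by the substrate of their family, the carriers rose and fell within every class, with class medians between -0.11 for inorganic ions and 0.06 for carboxylates.

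**Figure D2:**
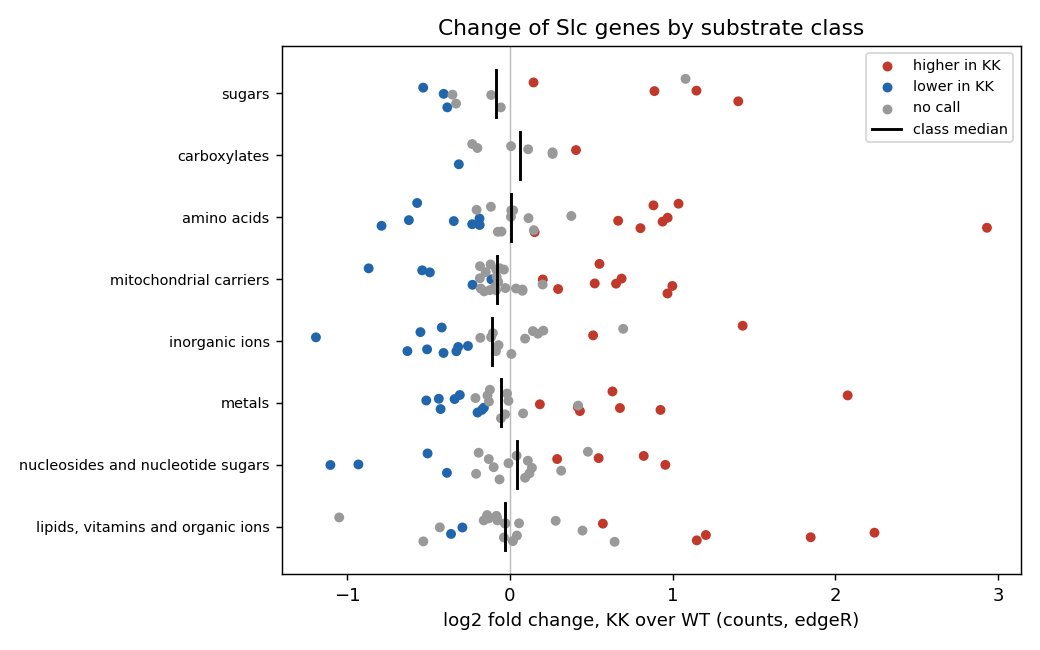
The log2 fold change, KK over WT, of each tested carrier by the substrate class of its family; red points were called higher in KK, blue points lower, grey points had no call, and black bars are class medians. Every class holds both higher and lower genes, and all class medians lie between -0.11 and 0.06.

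The hexose carriers held the largest share of the carrier RNA, 34.9% and 34.8% of the summed carrier TPM in KK libraries and 40.0% and 40.2% in WT libraries, and that share rested on Slc2a3. Slc2a3 (ENSMUSG00000003153, chr6:122727809-122801640 in GRCm38, minus strand) encodes GLUT3, a high-affinity glucose transporter known from neurons and sperm. It had 2144 and 2165 TPM in KK libraries, against 2879 and 2827 TPM in WT libraries. Both KK libraries lay below both WT libraries, far outside the spread within a genotype. In counts this was 3330 ± 1.67 CPM in KK and 4420 ± 20.1 CPM in WT (SD, n = 2 each), a log2 fold change of -0.41 ± 0.035 (SE; edgeR quasi-likelihood adjusted p = 1.39e-10). Slc2a5, the fructose transporter GLUT5, had 370.4 and 387 TPM in KK, against 390.2 and 415 TPM in WT. It did not pass the test (log2 fold change -0.06 ± 0.035, edgeR adjusted p = 0.213), although it did without KK replicate 2 (-0.10) and its sign turned under library size scaling (0.03). Slc2a8, the intracellular hexose transporter GLUT8, had 88.0 and 99.6 TPM in KK and 85.9 and 79.1 TPM in WT. It was called higher (log2 fold change 0.15 ± 0.055, edgeR adjusted p = 0.0314), a call lost without KK replicate 2 (0.05) or WT replicate 2 (0.06).

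The lower-level sugar carriers moved further. Slc37a2, a glucose 6-phosphate and phosphate exchanger of the endoplasmic reticulum, had 3.48 and 3.74 TPM in KK and 1.39 and 0.98 TPM in WT (log2 fold change 1.15 ± 0.176, edgeR adjusted p = 4.2e-06). Both KK libraries lay above both WT libraries. Slc5a4b, of the sodium-coupled sugar family, had 3.18 and 3.17 TPM in KK and 1.71 and 1.73 TPM in WT (log2 fold change 0.89 ± 0.183, edgeR adjusted p = 0.000231). Slc45a4, of a family of putative sugar transporters, had 33.1 and 33.5 TPM in KK and 40.5 and 40.3 TPM in WT (log2 fold change -0.38 ± 0.056, edgeR adjusted p = 2.3e-06). The libraries of each genotype lay close together for both genes. Its relative Slc45a3, known in human prostate as prostein, was one of the genes let in by its KK level and rose by a log2 fold change of 1.4 ± 0.34 (edgeR adjusted p = 0.00127). In all, 4 of the 12 tested sugar carriers were higher (Slc37a2, Slc5a4b, Slc45a3 and Slc2a8), 3 were lower (Slc2a3, Slc45a4 and Slc37a1) and 5 had no call. The shares were 33.3% higher and 25.0% lower, against 22.0% and 21.7% of all genes tested.

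Of the carriers known from sperm and testis, 9 were expressed. Of these, 3 were higher in KK (33.3%, background 22.0%), 2 lower (22.2%, background 21.7%) and 4 without a call. Slc16a7 encodes MCT2, a high-affinity monocarboxylate transporter that takes up pyruvate and lactate. It had 219.8 and 215 TPM in KK, against 193 and 174 TPM in WT (log2 fold change 0.41 ± 0.037 on counts, edgeR adjusted p = 5.05e-10). Both KK libraries lay above both WT libraries. The related Slc16a1 (MCT1; 3.25 and 3.12 TPM in KK, 2.78 and 2.54 TPM in WT) and Slc16a3 (MCT4; 6.09 and 6.05 TPM in KK, 5.90 and 5.54 TPM in WT) were far lower in level and had no call. Slc25a31 encodes the ADP/ATP carrier of male germ cells (ANT4). It had 60.5 and 59.2 TPM in KK, against 70.6 and 70.03 TPM in WT, with no overlap (log2 fold change -0.23 ± 0.049, edgeR adjusted p = 0.000369).

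Slc36a3, a testis member of the proton-coupled amino acid transporter family, had 14.6 and 13.1 TPM in KK, against 6.99 and 7.87 TPM in WT. It rose with a log2 fold change of 0.88 ± 0.124 (edgeR adjusted p = 1.14e-06), and the genotypes did not overlap. Slc22a16, Slc9b1 and Slc26a8, all abundant, had no call. Slc22a16, a carnitine transporter of human testis, had 286 and 277 TPM in KK and 275 and 273 TPM in WT. Slc9b1, a sodium-proton exchanger of the sperm flagellum, had 184 and 169.7 TPM in KK and 176 and 187 TPM in WT. Slc26a8, an anion exchanger of sperm, had 160.03 and 171 TPM in KK and 188 and 189 TPM in WT. None of these passed the edgeR test (adjusted p = 0.338 for Slc22a16, 0.856 for Slc9b1 and 0.0621 for Slc26a8). Slc26a8 was called lower without KK replicate 2 (log2 fold change -0.13) and with an offset for effective length (-0.20), no filter or limma, and Slc22a16 was called higher under library size scaling (0.13). Over the 9 genes the sums were 3531 and 3553 TPM in KK and 4219 and 4182 TPM in WT, most of which was Slc2a3.

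**Figure D3:**
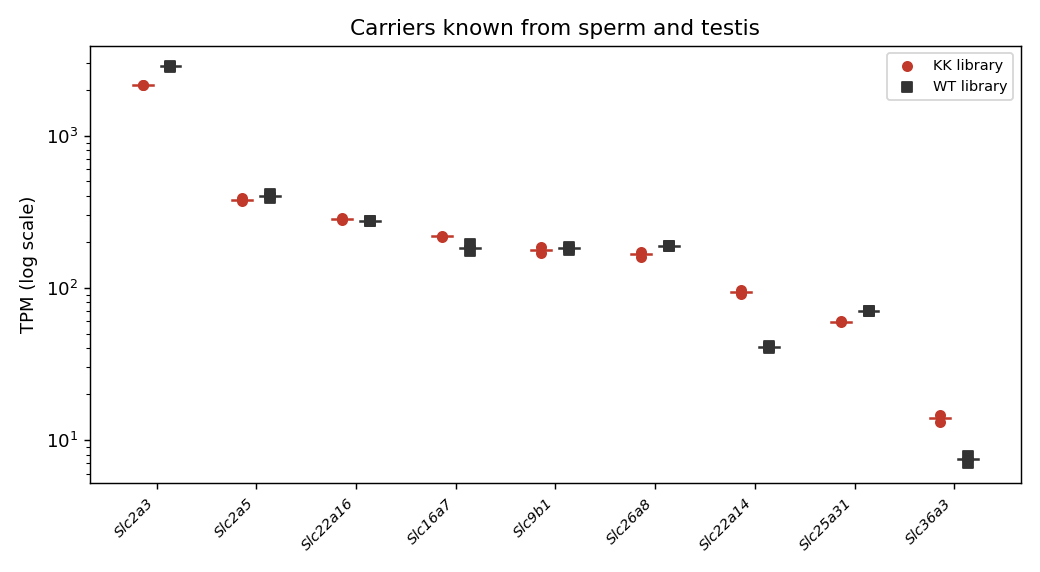
TPM (log scale) of the 9 expressed carriers known from sperm and testis, per library, KK as red circles and WT as dark squares, with short lines at the genotype means. Slc22a14 stands higher in KK (91.4 and 96.1 against 41.2 and 40.2 TPM) and Slc2a3 lower (2144 and 2165 against 2879 and 2827 TPM), while Slc22a16 differs by little.

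The clearest rises were those of Slc22a14 and Slc41a1. Slc22a14 (ENSMUSG00000070280, chr9:119169455-119365553, minus strand) encodes a riboflavin transporter of mouse sperm mitochondria that sperm motility depends on. It had 91.4 and 96.1 TPM in KK libraries, against 41.2 and 40.2 TPM in WT libraries. The gap between genotypes was many times the spread within either. Its counts were 137 ± 4.22 CPM in KK and 59.2 ± 0.333 CPM in WT (SD, n = 2 each), a 2.31-fold rise (log2 fold change 1.21 ± 0.05, edgeR adjusted p = 5.23e-17). Slc41a1 (ENSMUSG00000013275, chr1:131827493-131848865, plus strand) encodes a magnesium transporter. It had 18.5 and 21.1 TPM in KK libraries, against 4.89 and 4.30 TPM in WT libraries, on 1281 and 1274 expected counts in KK and 296 and 276 in WT. The libraries of each genotype again lay close together and the genotypes far apart. This was a 4.22-fold rise (log2 fold change 2.08 ± 0.091, edgeR adjusted p = 1.5e-16). Its relatives Slc41a2 and Slc41a3 had no call: Slc41a3, at a higher level than Slc41a1, had 45.8 and 47.9 TPM in KK and 48.3 and 47.3 TPM in WT. The call of Slc22a14 and that of Slc41a1 held in all 14 other settings.

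The promoters of these risers are shown beside those of Slc8a2 and Slc34a2, the fallers with the smallest adjusted p among the carriers with an entry in the RefSeq promoter table, to set the sequence before each start against the change in RNA. The sequences are RefSeq's, in build GRCm38.p6, and run from 250 bases before to 50 bases after the annotated start. Capitals mark short motifs on either strand: CCAAT boxes (CCAAT or ATTGG), GC boxes (GGGCGG or CCGCCC), the CRE core (TGACG or CGTCA) and MYB sites (CAACNG or TAACNG and their complements). The CRE core also lies within the longer CRE palindrome TGACGTCA, which was searched too. The windows are chr9:119190346-119190645 (minus strand) for Slc22a14, chr1:131827762-131828061 (plus) for Slc41a1, chr7:16129576-16129875 (plus) for Slc8a2 and chr5:53049103-53049402 (plus) for Slc34a2.
Slc22a14: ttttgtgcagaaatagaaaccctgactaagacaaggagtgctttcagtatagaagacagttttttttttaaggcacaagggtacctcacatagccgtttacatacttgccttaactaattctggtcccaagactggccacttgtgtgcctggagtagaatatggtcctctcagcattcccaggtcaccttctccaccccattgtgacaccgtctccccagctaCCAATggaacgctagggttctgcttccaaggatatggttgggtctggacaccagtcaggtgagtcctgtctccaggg
Slc41a1: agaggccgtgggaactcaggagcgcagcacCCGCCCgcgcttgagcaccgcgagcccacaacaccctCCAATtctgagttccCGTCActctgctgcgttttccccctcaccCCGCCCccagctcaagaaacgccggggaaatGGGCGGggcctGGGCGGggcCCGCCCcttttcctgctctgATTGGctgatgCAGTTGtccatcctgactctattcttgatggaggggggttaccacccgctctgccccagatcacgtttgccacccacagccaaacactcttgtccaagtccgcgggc
Slc8a2: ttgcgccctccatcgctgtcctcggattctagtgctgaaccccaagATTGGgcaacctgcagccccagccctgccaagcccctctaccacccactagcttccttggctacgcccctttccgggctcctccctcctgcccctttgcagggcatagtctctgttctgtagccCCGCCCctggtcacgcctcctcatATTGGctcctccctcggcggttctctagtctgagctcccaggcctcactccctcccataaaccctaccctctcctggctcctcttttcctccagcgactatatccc
Slc34a2: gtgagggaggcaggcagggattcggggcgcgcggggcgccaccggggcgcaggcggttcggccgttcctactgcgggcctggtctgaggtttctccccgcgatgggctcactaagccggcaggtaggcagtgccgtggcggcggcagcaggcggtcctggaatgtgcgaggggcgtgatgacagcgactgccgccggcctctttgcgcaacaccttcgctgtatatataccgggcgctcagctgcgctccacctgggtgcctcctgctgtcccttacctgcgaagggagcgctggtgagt
Slc22a14, one riser, held 1 CCAAT box and a GC content of 48.3%. Slc41a1, the other, held 2 CCAAT boxes, 5 GC boxes, 1 CRE core and 1 MYB site at 63.7% GC. Among the fallers, Slc8a2 held 2 CCAAT boxes and 1 GC box, and none of these motifs was found in the Slc34a2 window. Over the 131 carriers with a RefSeq promoter analysed here, a CCAAT box was present in 35.1%, against 39.2% of 9224 promoters of expressed protein-coding genes, and a GC box in 72.5%, against 61.0%. The CRE core was found in 29.8% of carrier promoters and 31.7% of all, the CRE palindrome in 1.53% and 3.43%, CAACNG in 35.1% and 35.5%, and TAACNG in 14.5% and 20.1%. A match describes the letters of the window and is not evidence of binding.

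Other carriers at least 2-fold higher in KK had low levels. Slc10a3, X-linked and described with the other X-linked genes below, Slc37a2 and Slc45a3 (above) were among them. Slc44a5, of the choline transporter-like family, had 1.71 and 1.62 TPM in KK and 0.80 and 0.70 TPM in WT (log2 fold change 1.15 ± 0.236, edgeR adjusted p = 0.000218). It was let in by its KK level alone. Slc26a6, a chloride and anion exchanger, had 4.84 and 4.93 TPM in KK and 1.16 and 0.95 TPM in WT. That rise rested on 40 and 35 expected counts in KK and 17 and 9 in WT (log2 fold change 1.43 ± 0.425, edgeR adjusted p = 0.00731). The call was lost without WT replicate 2 (1.00) and with DESeq2. Slc22a23, an orphan of the organic ion family, had 54 and 57 expected counts in KK and 11 and 11 in WT, but 1.12 and 3.04 TPM in KK and 1.5 and 1.41 TPM in WT. Its counts did not overlap and its TPM did. The effective length the tables assign to it, by which TPM is divided, averaged 2169 bases in KK and 533 in WT. With an offset for that length its log2 fold change was 0.44 in place of 2.24, and the call was lost.

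**Figure D4:**
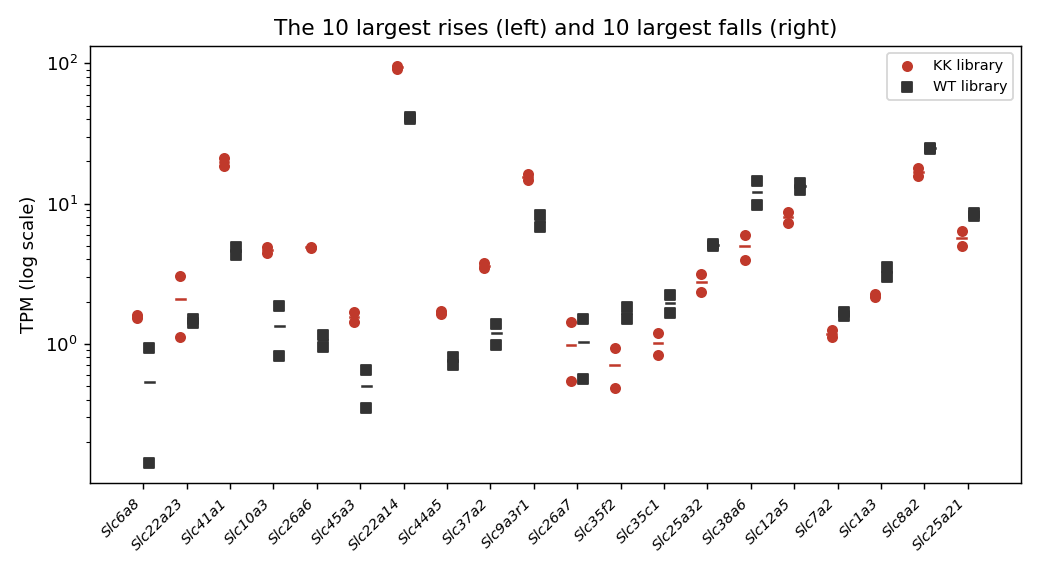
TPM (log scale) per library of the 10 called carriers with the largest rises (left) and the 10 with the largest falls (right) in KK, KK as red circles, WT as dark squares, with short lines at the genotype means. Slc41a1 and Slc22a14 are the highest-level risers, and the TPM of Slc22a23 and Slc26a7 overlap although their counts do not.

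Carriers of inorganic ions fell more often than they rose. Of 22, 9 were lower in KK (40.9%, background 21.7%), 2 were higher (9.09%, background 22.0%) and 11 had no call, with a median log2 fold change of -0.11 against 0.003 for all genes tested. Among protein-coding genes with a mean TPM of at least 1, 28.1% were lower and 22.8% higher. Their lower share differed by level: 16.2% at 1 to 10 TPM, 34.0% at 10 to 50 TPM and 37.5% at 50 TPM or more. Slc26a7, counted among the 9, was let in by its WT level alone. The median of the ion carriers stayed below 0 in every setting run. It was -0.03 under library size scaling, where 8 were lower and 3 higher, while limma on log2(TPM + 1) called 5 lower and 2 higher. Slc8a2 (ENSMUSG00000030376) encodes NCX2, a plasma membrane sodium-calcium exchanger. It had 15.9 and 18.02 TPM in KK, against 25.03 and 24.6 TPM in WT (log2 fold change -0.55 ± 0.058, edgeR adjusted p = 8.83e-09). Slc34a2, a sodium-phosphate cotransporter, had 44.2 and 45.8 TPM in KK, against 62.2 and 57.4 TPM in WT (log2 fold change -0.41 ± 0.044, edgeR adjusted p = 1.03e-08). Both KK libraries lay below both WT libraries for each gene.

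Slc9a5, the sodium-proton exchanger NHE5, had 22.4 and 23.5 TPM in KK, against 32.2 and 32.9 TPM in WT (log2 fold change -0.51 ± 0.058, edgeR adjusted p = 2.86e-08). Potassium-chloride cotransporters went in different directions. Slc12a5 (KCC2) had 8.74 and 7.29 TPM in KK, against 12.6 and 14.04 TPM in WT (log2 fold change -0.63 ± 0.085, edgeR adjusted p = 5.63e-07). Slc12a7 (KCC4) had 11.2 and 8.91 TPM in KK, against 6.39 and 5.21 TPM in WT (log2 fold change 0.51 ± 0.104, edgeR adjusted p = 0.000189). Their relative Slc12a4 (KCC1; 1.42 and 2.22 TPM in KK, 1.73 and 2.15 TPM in WT) overlapped between genotypes and had no call. Slc4a8, Slc20a1, Slc26a2 and Slc26a7 were also lower. The call of Slc26a2 was lost in 7 of 14 other settings, among them DESeq2 and without KK replicate 2 (-0.20) or WT replicate 1 (-0.32), and that of Slc4a8 with the length offset and limma. The call of Slc26a7 rested on 18 and 12 expected counts in KK and 25 and 40 in WT, and was lost without KK replicate 2 (-0.996) or WT replicate 2 (-0.87) and with the length offset (-0.17).

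Amino acid carriers were divided, with 8 of 25 higher (32.0%, background 22.0%), 7 lower (28.0%, background 21.7%) and 10 without a call (median log2 fold change 0.009). Slc6a21, a member of the Slc6 family and the most abundant of them, had 328 and 369.9 TPM in KK, against 404 and 405 TPM in WT (log2 fold change -0.19 ± 0.039, edgeR adjusted p = 0.000307; lost with limma on log2 TPM). Slc6a6, the taurine transporter, had 16.6 and 18.6 TPM in KK, against 10.98 and 9.07 TPM in WT, with no overlap (log2 fold change 0.97 ± 0.094, edgeR adjusted p = 1.61e-09). Slc38a6, of the sodium-coupled neutral amino acid family, had 3.99 and 6.01 TPM in KK, against 14.4 and 9.74 TPM in WT (log2 fold change -0.79 ± 0.138, edgeR adjusted p = 2.99e-05). Both of its WT libraries lay above both KK libraries, with a wide spread between them.

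The heteromeric transporters, which pair a heavy chain with a light chain, showed no common direction. The heavy chain Slc3a2 (4F2hc) had 64.4 and 60.8 TPM in KK and 48.7 and 56.2 TPM in WT and was called higher by a small margin (log2 fold change 0.15 ± 0.058, edgeR adjusted p = 0.0341), a call that held in 6 of 14 other settings and was lost without KK replicate 2 (0.09), WT replicate 1 (0.11) or WT replicate 2 (0.19). Of its light chains, Slc7a8 (LAT2) had 2.76 and 2.91 TPM in KK and 1.42 and 1.34 TPM in WT (log2 fold change 1.04 ± 0.174, edgeR adjusted p = 1.65e-05). Slc7a7 (y+LAT1) was also higher. Slc7a5 (LAT1) had 23.6 and 25.5 TPM in KK and 27.6 and 28.3 TPM in WT (log2 fold change -0.23 ± 0.064, edgeR adjusted p = 0.00439), a call lost in 5 of 14 other settings, among them without KK replicate 1 (-0.18) and library size scaling. Slc7a6 (y+LAT2) was called lower, and the call was lost in 10 of 14, among them DESeq2, the replicate block and without KK replicate 1 (-0.17), WT replicate 1 (-0.18) or WT replicate 2 (-0.21). In the glutamate and neutral amino acid family Slc1, Slc1a5 (ASCT2) was called higher, which was lost without KK replicate 1 (0.71) and in 4 other settings, and Slc1a2 had no call. Slc1a3 (GLAST) had 2.15 and 2.25 TPM in KK and 2.99 and 3.55 TPM in WT (log2 fold change -0.57 ± 0.153, edgeR adjusted p = 0.00329), a call lost without WT replicate 2 (-0.45). Slc7a2, a cationic amino acid transporter, had 1.11 and 1.25 TPM in KK and 1.68 and 1.58 TPM in WT (log2 fold change -0.62 ± 0.183, edgeR adjusted p = 0.0071), a call lost with DESeq2 and with the length offset.

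The mitochondrial carriers of Slc25 formed the largest family. Of 32, 8 were higher (25.0%, background 22.0%), 5 lower (15.6%, background 21.7%) and 19 had no call. Their summed level was 1656 and 1693 TPM in KK and 1712 and 1727 TPM in WT. Slc25a39, the mitochondrial glutathione carrier and the most abundant of them, had 780.8 and 805 TPM in KK, against 862 and 861 TPM in WT. The genotypes did not overlap, and the fall was small (log2 fold change -0.11 ± 0.034, edgeR adjusted p = 0.00825; lost under library size scaling). Slc25a3, the phosphate carrier, had 126 and 127 TPM in KK, against 107 TPM in each WT library (log2 fold change 0.20 ± 0.046, edgeR adjusted p = 0.00068). Slc25a2, an ornithine carrier, had 75.1 and 76.6 TPM in KK, against 61.5 and 62.3 TPM in WT (log2 fold change 0.30 ± 0.069, edgeR adjusted p = 0.000897). Both rises exceeded the spread within either genotype and held in all 14 other settings.

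The 3 expressed ADP/ATP carriers differed in level and in change. The germ cell form Slc25a31 (above) was by far the most abundant and fell. The X-linked general form Slc25a5 (ANT2) had 7.13 and 7.83 TPM in KK and 4.56 and 5.85 TPM in WT, and the muscle form Slc25a4 (ANT1) had 2.32 and 3.49 TPM in KK and 3.18 and 2.78 TPM in WT, with overlap and no call. The ATP-magnesium and phosphate exchangers were also uneven. Slc25a25 had 12.8 and 14.2 TPM in KK and 9.97 and 8.48 TPM in WT (log2 fold change 0.65 ± 0.096, edgeR adjusted p = 2.18e-06), and Slc25a41 had 12.4 and 11.6 TPM in KK and 6.75 and 5.19 TPM in WT (log2 fold change 1.00 ± 0.178, edgeR adjusted p = 3.65e-05). Slc25a25 shares 379 exonic bases with Naif1 on the other strand. Slc25a23 and Slc25a24 had no call. Slc25a30, whose substrate is less well defined, was called higher (log2 fold change 0.97 ± 0.147, edgeR adjusted p = 3.5e-06) on TPM values of 4.88 and 5.32 in KK and 2.19 and 4.84 in WT, and the call was lost with the length offset. Among the fallers, Slc25a32, a folate and FAD carrier, had 3.15 and 2.33 TPM in KK and 4.96 and 5.16 TPM in WT (log2 fold change -0.87 ± 0.179, edgeR adjusted p = 0.000233). Slc25a36, a pyrimidine nucleotide carrier, had 5.63 and 5.32 TPM in KK and 8.01 and 9.19 TPM in WT (log2 fold change -0.49 ± 0.106, edgeR adjusted p = 0.000379). Slc25a21, the oxoadipate carrier, had 6.39 and 4.99 TPM in KK and 8.09 and 8.52 TPM in WT (log2 fold change -0.54 ± 0.123, edgeR adjusted p = 0.000713), and shares 189 exonic bases with Pax9 on the other strand.

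Of 25 metal carriers, 7 were higher (28.0%, background 22.0%), 8 lower (32.0%, background 21.7%) and 10 without a call. The counts moved with the settings: library size scaling gave 7 higher and 2 lower, and there were 4 higher and 6 lower without KK replicate 1, 4 and 6 without WT replicate 1, and 4 and 5 without WT replicate 2. Zinc carriers made up most of the class. Slc30a3 (ZnT3), which loads zinc into vesicles, had 148 and 152 TPM in KK, against 170.02 and 173 TPM in WT (log2 fold change -0.17 ± 0.039, edgeR adjusted p = 0.000753; lost under library size scaling). Slc30a5 (ZnT5), which supplies zinc to the secretory pathway, had 6.96 and 6.22 TPM in KK, against 9.39 and 8.50 TPM in WT (log2 fold change -0.43 ± 0.103, edgeR adjusted p = 0.00132). The importer Slc39a8 (ZIP8) had 36.1 and 36.6 TPM in KK, against 27.1 and 27.5 TPM in WT (log2 fold change 0.42 ± 0.057, edgeR adjusted p = 7.53e-07). None of these genes overlapped between genotypes. Both zinc families held genes called in either direction: 3 ZIP importers were higher and 3 lower, and among ZnT exporters 1 was higher and 4 lower. The ZnT riser, Slc30a6, lost its call in 5 of 14 other settings, among them DESeq2 and the length offset. Of the lower ZIP genes, Slc39a9 and Slc39a14 turned sign with the length offset. With DESeq2, and likewise with the length offset, the whole metal class had 2 higher and 3 lower.

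Carriers of lipids, vitamins and organic ions had 5 genes higher, 2 lower and 18 without a call of 25. Besides Slc22a14, Slc10a3, Slc22a23 and Slc44a5, the urea transporter gene Slc14a2 rose, with 18.2 and 18.4 TPM in KK and 11.7 and 13.01 TPM in WT (log2 fold change 0.57 ± 0.113, edgeR adjusted p = 0.000141). The riboflavin transporter Slc52a2 had 8.95 and 8.44 TPM in KK and 11.3 TPM in each WT library (log2 fold change -0.36 ± 0.091, edgeR adjusted p = 0.00183). Slc47a2, a multidrug and toxin extrusion protein, had 33.1 and 43.8 TPM in KK and 39.6 and 41.6 TPM in WT. Its TPM overlapped, and its call (log2 fold change -0.29 ± 0.071, edgeR adjusted p = 0.00143) was lost with the length offset. The mouse carnitine transporter Slc22a21, among the 10 most abundant carriers, had 108 and 120.6 TPM in KK and 127 and 113 TPM in WT and no call, though it was called lower without KK replicate 2 (-0.14); its counts were not whole, so reads had been divided between it and other genes.

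Among the nucleoside and nucleotide sugar carriers, 4 of 21 were higher, 4 lower and 13 without a call. Without a single library the counts ranged from 2 to 4 higher and from 2 to 5 lower. Slc35g3 had 36.4 and 38.2 TPM in KK and 25.6 and 25.5 TPM in WT (log2 fold change 0.55 ± 0.091, edgeR adjusted p = 1.44e-05). Its relative Slc35g1 had 2.06 and 1.69 TPM in KK and 0.99 and 1.04 TPM in WT (log2 fold change 0.82 ± 0.237, edgeR adjusted p = 0.00566). Slc35d1, a nucleotide sugar transporter of the endoplasmic reticulum, had 4.89 and 5.31 TPM in KK and 6.81 and 6.49 TPM in WT (log2 fold change -0.39 ± 0.104, edgeR adjusted p = 0.00327). The GDP-fucose transporter Slc35c1 had 0.83 and 1.20 TPM in KK and 2.21 and 1.67 TPM in WT (log2 fold change -0.93 ± 0.261, edgeR adjusted p = 0.00467), a call lost without KK replicate 1 (-0.69) or WT replicate 1 (-0.73). Slc35f2 (0.48 and 0.93 TPM in KK, 1.84 and 1.49 TPM in WT), let in by its WT level alone, lost its call without KK replicate 1 (-0.71) and with DESeq2. Of the 8 carboxylate carriers, Slc16a7 was higher and 6 had no call. The citrate transporter Slc13a5 was lower, with 49.7 and 50.3 TPM in KK and 62.7 and 61.3 TPM in WT (log2 fold change -0.31 ± 0.047, edgeR adjusted p = 3.14e-06). It shares 473 exonic bases with 1700051A21Rik on the other strand.

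The 3 genes with an Slc symbol that are not carriers were of mixed direction. Slc9a3r1 encodes NHERF1, a scaffold that binds sodium-proton exchangers and other membrane proteins. It had 16.3 and 14.6 TPM in KK, against 6.76 and 8.28 TPM in WT, with no overlap (log2 fold change 1.04 ± 0.117, edgeR adjusted p = 2.36e-08). Slc4a1ap, which encodes kanadaptin, had 35.1 and 42.5 TPM in KK and 40.1 and 40.7 TPM in WT; its call of lower (log2 fold change -0.25 ± 0.082, edgeR adjusted p = 0.015) was lost without KK replicate 1 (-0.21) or WT replicate 1 (-0.24). Slc7a6os had 20.8 and 22.3 TPM in KK and 24.5 and 26.6 TPM in WT and no call (edgeR adjusted p = 0.0525), though it passed without KK replicate 2 and with the replicate block.

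The X chromosome is silenced in pachytene spermatocytes, and 4 expressed carriers lie on it. All 4 were higher in KK, where 57.6% of the 568 X-linked genes tested were higher and 1.06% lower. Slc6a8, counted among the 4, was let in by its KK level alone and so had to differ in mean. Slc10a3, of the bile acid transporter family (chrX:74369217-74373349, minus strand), had 4.88 and 4.46 TPM in KK, against 0.82 and 1.86 TPM in WT (log2 fold change 1.85 ± 0.267, edgeR adjusted p = 1.7e-06; 2.58 without WT replicate 2). It shares 258 exonic bases with its neighbour Ubl4a. Slc6a8, the creatine transporter, had 58 and 57 expected counts in KK and 9 and 5 in WT, and 1.53 and 1.6 TPM in KK against 0.93 and 0.14 TPM in WT. Its log2 fold change was 2.93 ± 0.418 (edgeR adjusted p = 1.39e-06), and the call was lost with the length offset (2.03). Slc35a2, the UDP-galactose transporter, had 2.51 and 2.45 TPM in KK and 1.43 and 1.79 TPM in WT (log2 fold change 0.96 ± 0.346, edgeR adjusted p = 0.026). Slc25a5 had a log2 fold change of 0.52 ± 0.207 (edgeR adjusted p = 0.0423). These last genes each lost their call in 7 of 14 other settings. For Slc35a2 they included leaving out KK replicate 1 (0.93), KK replicate 2 (0.96) or WT replicate 2 (0.65), and for Slc25a5 KK replicate 1 (0.57), KK replicate 2 (0.45) or WT replicate 1 (0.35), so that 2 of the 4 were called without KK replicate 1 and 2 without KK replicate 2. The spermatogonial and Leydig markers above were higher in KK too, and their part in these rises was not tested.

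Isoform shares were mostly alike in the libraries. The same isoform led in all 4 libraries for 125 carriers, and for 37 a single isoform held at least 90% of the gene's TPM in every library. For 45 the leading isoform differed within a genotype. Another isoform led in both KK libraries than in both WT libraries for 4 genes, Slc37a2, Slc25a37, Slc44a2 and Slc4a7. Slc37a2 showed the widest difference: isoform Slc37a2-202 held 48.5% and 48.8% of its TPM in KK and 29.9% and 3.93% in WT, and Slc37a2-201 held 33.4% and 26.4% in KK and 67.4% and 73.7% in WT. In Slc25a37, the iron importer mitoferrin-1, the coding isoform 201 held 53.1% and 51.8% in KK and 47.1% and 46.7% in WT, and the nonsense-mediated decay isoform 204 held 42.8% and 41.6% in KK and 49.8% and 48.02% in WT. In Slc22a23, the coding isoform 205 held 55.4% and 17.9% in KK and 3.05% and 3.02% in WT, and the rest was the retained-intron form 202. Slc35e2-203 held 44.4% and 62.4% of Slc35e2 in KK and 22.2% and 8.82% in WT. These shares rest on few counts and no isoform test was made.

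**Figure D5:**
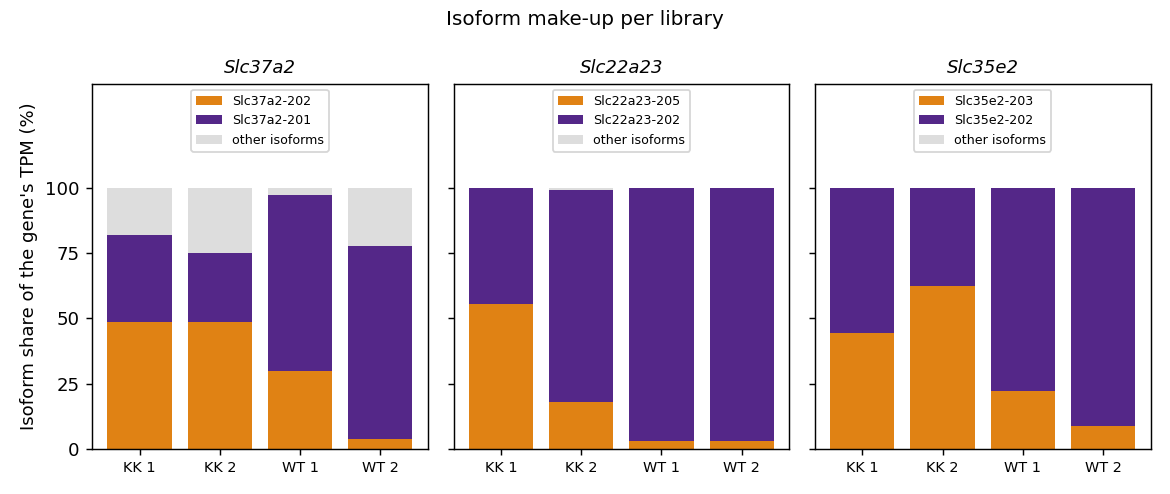
Share of each gene's TPM (%) held by named isoforms of Slc37a2, Slc22a23 and Slc35e2 in each library, KK to the left of WT; grey marks all other isoforms. The orange isoform holds more in both KK libraries than in both WT libraries for all 3 genes.

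Isoform assignment also separates the count and TPM scales. Of the 80 called carriers, 67 had no overlap in TPM (38 higher and 29 lower), 13 overlapped in TPM, and 4 of these (Slc7a1, Slc39a9, Slc39a14 and Slc35e2) had a TPM ratio of the opposite sign. Count fold and TPM ratio differed by over 0.5 (log2) for 7 called carriers, namely Slc39a14, Slc26a6, Slc22a23, Slc48a1, Slc35e2, Slc6a8 and Slc26a7. With limma on log2(TPM + 1), the calls of Slc25a39, Slc25a25, Slc25a21, Slc30a5, Slc39a6, Slc52a2, Slc35d1 and Slc35g1 were also lost. Of the 174, 142 had whole expected counts in all libraries, and 39 share at least 100 exonic bases with another gene above a mean of 0.1 TPM, 24 of them with a gene at a mean TPM of at least 1.

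Proteins that work with the carriers, or that move ions and metabolites beside them, changed in both directions as well. Of 15 tested partner proteins, 2 were higher and 3 lower. Bsg, the chaperone of MCT1 and MCT4, had 937 and 948 TPM in KK and 828 and 807 TPM in WT (log2 fold change 0.20 ± 0.035, edgeR adjusted p = 1.78e-05), and its relative Nptn was also higher. Wnk1, the kinase upstream of the cation-chloride cotransporters, had 58.03 and 53.7 TPM in KK and 85.1 and 113 TPM in WT (log2 fold change -0.78 ± 0.041, edgeR adjusted p = 8.64e-15). Stk39, the kinase that WNK kinases act through, had 239 and 229 TPM in KK and 278 TPM in each WT library (log2 fold change -0.25 ± 0.035, edgeR adjusted p = 9.71e-07). For all 3 genes the genotypes did not overlap.

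Of 42 tested cation and proton pump ATPases, 8 were higher and 6 lower. The proton pump subunits went apart: Atp6v1e2, a testis form, had 98.2 and 93.04 TPM in KK and 53.8 and 52.2 TPM in WT (log2 fold change 0.85 ± 0.083, edgeR adjusted p = 1.42e-09), while Atp6v1d had 162 and 146 TPM in KK and 249.9 and 254 TPM in WT (log2 fold change -0.75 ± 0.042, edgeR adjusted p = 2.73e-14). Atp13a3 was higher (log2 fold change 0.89) and the calcium pump Atp2b4 lower (-0.54). Of 24 tested mitochondrial channels and non-SLC carriers, 3 were higher (12.5%, background 22.0%), among them the calcium uniporter Mcu (0.88) and Letm2 (0.13). Another 6 were lower (25.0%, background 21.7%), among them Letmd1 (-0.62) and Abcb6 (-0.29). Of 35 tested ABC family genes, 10 were higher (28.6%), among them Abca1 (1.73). Another 6 were lower (17.1%), of which Abcc12 (-0.36) and Abcf1 (-0.32) had the smallest adjusted p. This list was taken by family name and also holds Abce1 and the Abcf genes, whose products are not transporters. Among all genes tested, 22.0% were higher and 21.7% lower. Of 14 listed SLCO organic anion transporters, 7 were tested. Of these, 2 were higher (28.6%), Slco2b1 (3.55) and Slco5a1 (1.42), and 0 lower. Both risers lay at 1.81 TPM or less in every library. Slco2b1 passed the expression filter through its KK level alone (3 and 6 expected counts in WT) and so had to differ. Slco5a1 had 10 expected counts in each WT library.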

How the data were processed

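Per the labels' protocols, germ cells were freed with collagenase and trypsin and enriched by elutriation, DAPI staining served to judge purity, and total RNA went into a library kit that keeps no strand information. Bowtie, mm10 and GRCm38 are named in the submitters' processing notes. Which program estimated the counts, and on which annotation, is not given in the sources used here. For each gene the authors deposited, per the file headers, expected counts (estimated, not all whole numbers) and TPM (divided by effective length and scaled to 1 total per library). Per isoform, the deposited tables also give the percent of the gene's TPM that each isoform holds, used as deposited.

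Of 55364 gene identifiers, 55104 were found in GENCODE M21 (GRCm38), which gave symbols, types and positions. Expected counts were rounded and tested over all genes with edgeR 4.0.16 in R 4.3.3 (TMM factors, default expression filter, quasi-likelihood fit on genotype, Benjamini-Hochberg adjustment at 0.05), which left 16571 genes. CPM are on the TMM scale, and TPM sums are plain sums. Promoter sequences came from RefSeq (GRCm38.p6), in which 131 carriers off chromosome 18 were matched, 88 with a start within 50 bases of the leading isoform's. The edgeR step was tried on 3 simulated data sets of KK against WT with 16571 genes: genes changed 1.25-fold were recovered in 34% of cases, those changed 1.5-fold in 68%, 2-fold in 83.3% and 4-fold in 99.3%. Unchanged genes made up 7.78% of the calls. Each fold was given to 150 genes over the 3 sets, all at a mean of at least 1 CPM. Far fewer genes were thus changed than were called in the real libraries, so these rates need not hold there.

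The members, gene lists and tests were chosen with earlier results of these data known. Genes named by rule were the 10 most abundant, the 10 largest rises and falls among called genes without overlap in CPM, up to 2 risers and fallers per substrate class and partner list with the smallest adjusted p, the testis carriers, the X-linked called genes, the non-carriers and the 3 genes on either side of the threshold. Some genes the rule takes are not reported here. Other carriers named beside their relatives were chosen after their values were seen. Classes follow the family's usual substrate, not that of each gene. The alternatives tried were RLE factors, TMM factors from autosomal genes, library size scaling, DESeq2 1.42.0, limma 3.58.1 on log2(TPM + 1) and log2(TPM + 0.1), a minimum mean of 1 CPM, no filter, an offset for effective length, a replicate block, each library left out in turn, other thresholds of 0.5 and 2 TPM, and the list without non-carriers. The libraries of a genotype differed by more than sampling noise (chi-square per degree of freedom 2.93 for KK and 2.84 for WT) and were kept apart.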

Additional observations from a re-analysis of the deposited data

How the results depend on the processing

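The main counts were 40 carriers higher in KK, 40 lower, 13 changed at least 2-fold and 4 X-linked carriers higher. Higher calls numbered 25 with limma on log2(TPM + 1). Lower calls numbered 24 with the effective length offset, 14 with limma on log2(TPM + 0.1) and 13 on log2(TPM + 1). The 2-fold changes numbered 6 with limma on log2(TPM + 1), 23 with genes from 0.5 TPM and 7 with genes from 2 TPM. X-linked risers numbered 2 with DESeq2 and 1 with the length offset and with either limma fit. With each library left out in turn, higher calls ranged from 32 to 35, lower calls from 34 to 43, 2-fold changes from 11 to 15 and X-linked risers from 2 to 3 (2 without KK replicate 1 and without KK replicate 2). In all 14 other fits, 21 of the 40 higher and 11 of the 40 lower calls were kept. Of the 80 called carriers, Slc7a1 (0.042), Slc39a9 (0.068) and Slc39a14 (0.023) turned sign with the length offset and with either limma fit, and Slc35e2 (0.001) with limma on log2(TPM + 1). Signs also turned for named genes without a call: Slc2a5 (0.028) and Slc22a21 (0.008) under library size scaling; Slc9b1 with the length offset (-0.049), either limma fit (-0.033), no filter (-0.002) and without KK replicate 1 (-0.017) or WT replicate 1 (-0.030; range over left-out libraries -0.030 to 0.036); Slc6a13 with the length offset (0.011), limma (0.025 and 0.017) and without WT replicate 1 (0.206; range -0.55 to 0.206). The cause was not tested. Same-numbered libraries deviated in opposite directions (correlation -0.31 over 10110 genes), so the numbers were not taken as pairs: with the replicate block 40 carriers were higher and 41 lower, 13 changed 2-fold and 4 X-linked carriers were higher. With the crossed block, added after the data were seen, 41 were higher and 43 lower. With 2 libraries a genotype, small changes of low-level genes are the least certain.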

Other observations

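Of the 196 carrier symbols below 1 TPM, 25 had no counts in any library and 65 had enough counts to test. Among these 65, 12 were higher in KK and 0 lower. The background over genes of every level was 22.0% and 21.7%. Protein-coding genes at 1 to 10 TPM were higher in 24.9% and lower in 16.2%, and no background is given for genes below 1 TPM. The expression filter asks for enough counts in 2 libraries, so a gene could pass it through 1 genotype alone. Such a gene had to differ, and how many of the 12 passed that way was not counted. The summed level of the 196 symbols was 59.7 TPM in each KK library, against 44.2 and 38.8 TPM in the WT libraries. X-linked genes were among the 12. Slc25a14, a mitochondrial carrier, had 1.64 and 0.58 TPM in KK and 0.36 and 0.34 TPM in WT (log2 fold change 1.95, edgeR adjusted p = 0.00691). Slc25a43 had 1.36 and 0.88 TPM in KK and 0.37 and 0.17 TPM in WT (log2 fold change 2.04, edgeR adjusted p = 0.0154). Autosomal genes among them included Slc25a47 (1.30 and 1.77 TPM in KK, 0.29 and 0.40 TPM in WT) and Slc7a14 (1.29 and 1.56 TPM in KK, 0.60 and 0.35 TPM in WT), and these genes were chosen after their values were seen. Of the genes named here, Slc25a14 (4 and 7 expected counts in WT), Slc25a43 (4 and 2) and Slc25a47 (5 and 6) passed the filter through KK alone. The Leydig cell markers, given with the description of the cells, were also higher in KK, and their part in these low levels was not tested.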
